A study of Hordeum vulgare with 6 samples.

Results

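In the shoot transcriptome of barley, 4 genes of phosphate sensing and export were examined: SPX1 (HORVU7Hr1G089910), SPX5 (HORVU2Hr1G031400), PHO1-3 (HORVU7Hr1G047210) and an inositol phosphate kinase gene (HORVU3Hr1G076320). They were taken by identifier from the 39841 genes in the authors' table, and all 4 were found there. The table pairs no identifier with a description, so the names come from the study and could not be checked against the data. For HORVU2Hr1G031400 the study's text writes SPX5, whereas its supplement describes an SPX protein of another number. The plants, of the line Rolap, stood in a soil that held 8 mg of phosphorus per kg. Low-Pi plants (Pi is inorganic phosphate) received no further phosphate, and control plants received 60 mg of phosphorus per kg as KH2PO4. The day length was 16 h, the temperature 22 °C, and shoots were harvested on day 23. There were 3 low-Pi and 3 control samples, and each sample was a pot of 3 plants.

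SPX proteins are small proteins built around the SPX domain, which binds inositol pyrophosphates, the signalling molecules that mark a cell as phosphate-replete. In Arabidopsis and rice, an SPX protein in this bound state holds back the PHR transcription factors, which otherwise switch on phosphate starvation genes. The inositol pyrophosphates are made by inositol phosphate kinases, so such a kinase makes the ligand that SPX proteins read. PHO1 proteins carry an SPX domain at one end of a membrane protein and export phosphate from cells. In Arabidopsis, PHO1 loads phosphate into the xylem for transport from root to shoot.

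In the group of shoots where its mean was higher, each of the 4 genes gave a signal, from low for PHO1-3 to moderate for the SPX genes. Each gene has 1 value, the higher of its low-Pi and control group means, which is called its level here. The column does not say which group that mean belongs to, nor how low the mean of the other group was. From this column alone, an order of genes by level therefore cannot be placed within 1 group. The values of single libraries are not analysed here. No difference between low-Pi and control shoots is therefore given, and the levels carry no error. Total counts per library are unknown. The unit is not named in the file. The methods define TPM and RPKM, which both divide by exon length, and name TPM as the normalisation, but the column sums to 589470, which is less than the fixed total that TPM values reach over all genes of a library. In such bulk tissue, fewer cells of a type and less RNA per cell cannot be told apart.

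SPX1 had the highest level of the 4 genes, 7.88. It stood above 80.6% of the 27022 genes with a level above 0 (Wilson 95% interval 80.1 to 81.1%, which covers counting of genes only and not the spread between plants). SPX1 belongs to the SPX proteins that restrain PHR factors in Arabidopsis and rice, and its gene lies on chromosome 7H, 546426392 to 546430875, on the plus strand of IBSC_v2.

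SPX5, a gene of the same SPX family on 2H (119493904 to 119495272, plus strand of IBSC_v2), had a level of 6.71 and stood above 78.4% of genes (Wilson 95% interval 77.9 to 78.9%). The level of SPX1 was 1.17 times that of SPX5. With no spread between libraries at hand, these neighbours in the order cannot be said to differ. Both SPX genes lay above the upper quartile of all genes with a level above 0, which was 5.39.

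The inositol phosphate kinase gene (3H, 568150537 to 568174721, plus strand of IBSC_v2) had a level of 2.58. It stood above 62.9% of genes (Wilson 95% interval 62.3 to 63.5%). The level of SPX5 was 2.60 times that of the kinase gene, but these levels do not show whether that order holds within each group. The study describes its product as an inositol hexakisphosphate and diphosphoinositol-pentakisphosphate type kinase, the kind of enzyme that makes inositol pyrophosphates.

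PHO1-3 (7H, 157317022 to 157323610, minus strand of IBSC_v2) had the lowest level, 0.992, which was above 46.7% of genes (Wilson 95% interval 46.1 to 47.3%). Among the 4 genes it alone lay under the median of all genes with a level above 0, 1.22. The level of SPX1 was 7.94 times that of PHO1-3, and the level of the inositol phosphate kinase gene was 2.60 times that of PHO1-3. Whether these steps exceed the spread between libraries, or hold within each group, was not tested. Together the 4 genes held 0.00308% of the summed level of the table.

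**Figure D1:**
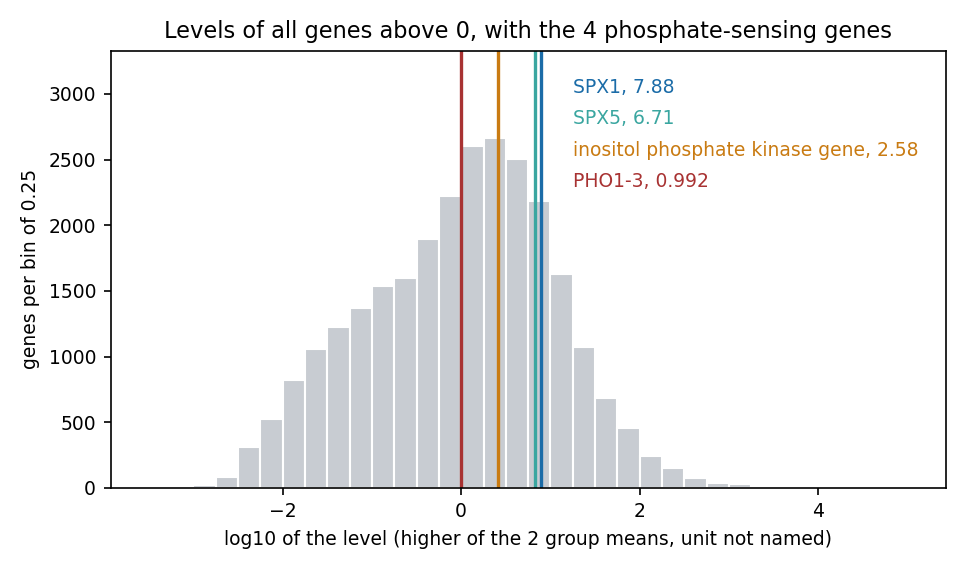
Number of genes (y axis) by the log10 of their level (x axis, the higher of the low-Pi and control group means, in a unit the file does not name) for the 27022 genes above 0, with a coloured line for each of the 4 genes. The SPX1 and SPX5 lines at 7.88 and 6.71 lie close together to the right of the median of 1.22 (not drawn), and the PHO1-3 line at 0.992 lies just below that value.

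The levels were then set beside those of 15 other phosphate genes that the study names, among them phosphate transporters, regulators and enzymes that free phosphate. The study names them with its own results on these samples in view, so the list is no random sample of the pathway. Most of them passed its test between low-Pi and control shoots in these same samples. The 4 genes of sensing and export are also among those that the study selected as differing between these shoots. For both sets, the place relative to the median is therefore not independent of how the genes were chosen. All 15 had a level above the median of genes with a signal, against 3 of the 4 genes of sensing and export. The median level was 4.65 for the 4 genes and 7.92 for the 15 others, beside 1.22 for all genes above 0. SPX1 was lower than 8 and higher than 7 of the 15, and SPX5 was lower than 10 and higher than 5. The inositol phosphate kinase gene and PHO1-3 were each lower than all 15. If the unit is TPM or RPKM as the methods define them, it divides by exon length. Levels of different genes were compared on that assumption, and the ranks among these genes have no test. The level of one gene can be its low-Pi mean and that of another its control mean, so the levels set side by side here may come from different conditions.

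Other proteins with an SPX domain had levels on both sides of the SPX genes. SPX-MFS1 (HORVU2Hr1G094690), a vacuolar phosphate transporter, had a level of 18.5. Its relative SPX-MFS2 (HORVU6Hr1G065710) had a level of 3.01, beside the 2.58 of the inositol phosphate kinase gene. Which condition each of these levels comes from was not determined here. Of the miR399 circuit, PHO2 (HORVU1Hr1G085570), an E2 enzyme that marks phosphate transporters for breakdown, had a level of 7.92, next to the 7.88 of SPX1. IPS1 (HORVU4Hr1G079600), the non-coding RNA that sequesters miR399, had 685, the highest level of the list.

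Genes for enzymes that release phosphate had levels from 2.69 to 22.2. Purple acid phosphatases split organic phosphate esters, and their genes had the lowest and the highest of these levels, in HORVU3Hr1G078360 and HORVU3Hr1G076060, and stood at 6.28 in HORVU5Hr1G055570 and 8.89 in PAP5 (HORVU5Hr1G044460). The hydrolase gene HAD1 (HORVU1Hr1G054430) had a level of 8.15. Levels of 15.1 and 5.59 were given for the inorganic pyrophosphatase genes HORVU3Hr1G068380 and HORVU3Hr1G068390. The span of HORVU3Hr1G068390 lies wholly inside that of HORVU3Hr1G068380, on the opposite strand. The doubt about shared reads given below for PHO1-3 therefore holds for these levels too. The 3 genes of lipid remodelling, which replace membrane phospholipids or recycle their parts, had levels of 31.6 for GDPD1 (HORVU3Hr1G079900), 7.54 for SQD2-like (HORVU3Hr1G010540) and 5.81 for MGD2 (HORVU4Hr1G044140). NIGT1 (HORVU2Hr1G020140), a repressor that links nitrate with phosphate, had 7.45. The levels of SPX1 and SPX5 thus fell among those of the enzymes, and PHO1-3 stood apart at the bottom of the list.

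**Figure D2:**
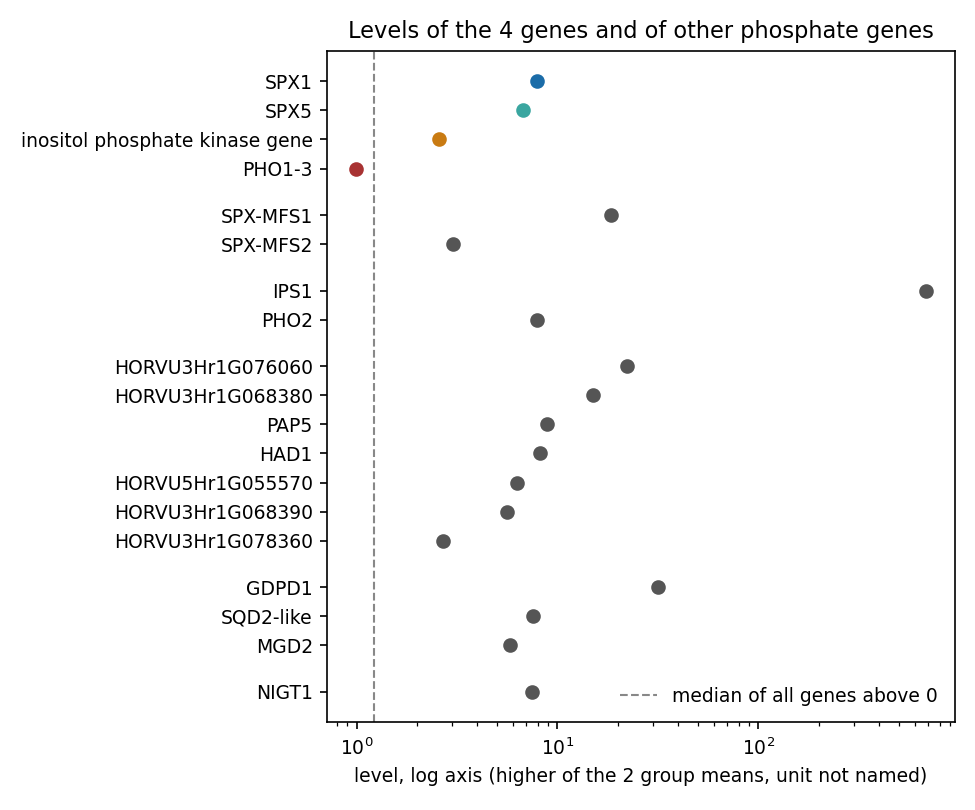
Level of each gene (x axis, log scale, the higher of the low-Pi and control group means, unit not named) for the 4 genes of sensing and export, coloured, and for 15 other phosphate genes, grey, grouped by function down the page. The dashed line is the median of all genes above 0 (1.22), and PHO1-3 is the only point to its left.

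PHO1-3 shares its place in the genome with another annotated gene. Its whole span of 6589 bp lies inside that of HORVU7Hr1G047200, which runs over 9507 bp on the opposite strand (7H, 157314595 to 157324101, plus strand of IBSC_v2), so PHO1-3 covers 69.3% of that span. HORVU7Hr1G047200 extends 491 bp beyond the annotated start of PHO1-3 and 2427 bp beyond its end. The authors' table gives no name for it. Its level was 0.0850, above 18.6% of genes, and the level of PHO1-3 was 11.7 times as high. Strand use in counting is not given in the sources used here, so reads of the 2 genes cannot be told apart for certain, and the value of PHO1-3 is uncertain to that extent. Of 37577 genes on chromosomes 1H to 7H, 4.56% lay wholly inside a gene on the opposite strand, and of the 4 genes only PHO1-3 did.

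The 4 genes further annotated within 100 kb of PHO1-3 lie between 960 and 9586 bp upstream of its annotated start, on the opposite strand, and HORVU7Hr1G047220, the nearest, is listed at 0 like the others. On the other side, HORVU7Hr1G047180 lies 202 kb away with a level of 0.0331.

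The inositol phosphate kinase gene had the longest span, 24185 bp, longer than that of 96.5% of genes on 1H to 7H, for which the median span was 2332 bp. HORVU3Hr1G076370 begins 149 bp after its annotated end on the opposite strand, so the ends of the 2 genes face each other. The level of that neighbour was 0.927, against 2.58 for the kinase gene, and what reads running past either end add to these levels was not tested. On the other side, HORVU3Hr1G076310 lies 3.19 kb away on the same strand, with a level of 1.07. HORVU3Hr1G076310 was also the only one of 4 genes within 100 kb with a level of at least 1.

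Both SPX genes lie far from the other genes listed by the authors. None of the listed genes lay within 100 kb of either, and annotated genes outside that list were not searched. For SPX1 the nearest gene was HORVU7Hr1G089930, 154 kb away with a level of 1.95, and the next gene on the other side, HORVU7Hr1G089880, was 252 kb away with a level of 0.116. For SPX5 the gaps were 123 kb to HORVU2Hr1G031410, with a level of 0.214, and 128 kb to HORVU2Hr1G031390, with 0.0335. The median gap to the nearest gene was 8829 bp on 1H to 7H, and the gap was smaller than that of SPX1 for 91.4% of genes and smaller than that of SPX5 for 88.6%. The span of SPX1 was 4484 bp and that of SPX5, the shortest of the 4 genes, 1369 bp.

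**Figure D3:**
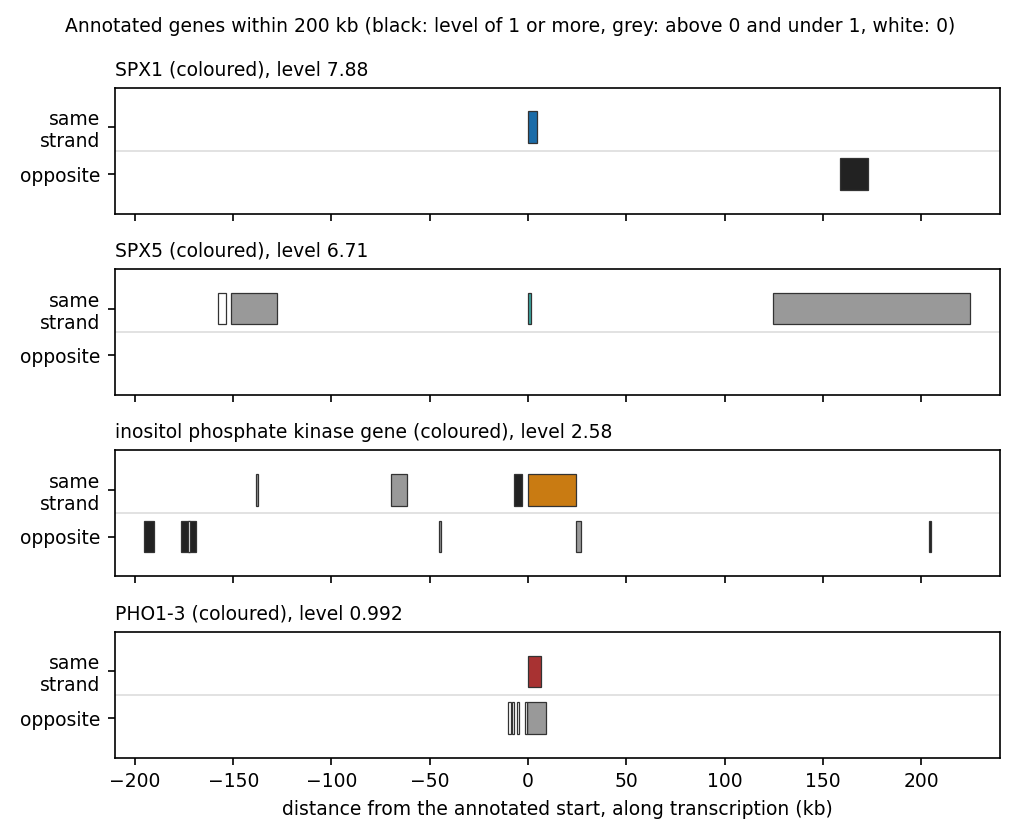
Annotated genes within 200 kb of SPX1, SPX5, the inositol phosphate kinase gene and PHO1-3 (top to bottom), by distance in kb from the annotated start of each along its direction of transcription; boxes above the line are on the same strand and boxes below on the opposite strand, black at a level of 1 or more, grey under 1 and white at 0. Among the genes listed by the authors, the SPX genes stand alone within 100 kb, and PHO1-3 lies over a gene on the opposite strand.

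Plant phosphate genes are often controlled through short promoter motifs, of which the PHR1 binding sequence (GNATATNC, where N is any base) and the PHO element (ATGCCAT) were searched on both strands. The first motif reads alike on both strands, and a match of either motif can share bases with a match of the other. The study lists 2 kb of sequence upstream of each of its selected genes, of which the first 399 bases could be read here for 96 genes, these 4 among them. These are bases from only 1 end of the 2 kb. Their distance from the gene start was not determined, so they cannot be taken as the promoter next to the gene. The larger part of each sequence was not used here, and no coordinates were computed for the stretch read. Within these bases a PHO element was read in 1 of the 4 genes, the inositol phosphate kinase gene, on the reverse strand at position 160, counted from 1 at the first listed base. Of all 96 sequences of this length, 9.38% held a PHO element on either strand and 9.38% a PHR1 binding sequence. These sequences belong to genes that the study selected as differing between low-Pi and control shoots, so the shares are no rate for barley genes at large. A PHR1 binding sequence was read in 0 of the 4 genes within the 399 bases, which does not mean that their promoters lack it. The study screened the whole 2 kb itself, and its matches in the bases not read here are not given. From the 399 bases alone, neither motif can be called absent from any of the 4 promoters. A match is a string of letters and no shown binding site.

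The stretch of the inositol phosphate kinase gene around the match is shown with the PHO element in capitals, read on the listed strand, where it appears as its reverse complement (bases 120 to 206 of the listed sequence, 3H, gene on the plus strand, IBSC_v2). The first 87 bases of the SPX5 sequence (2H, gene on the plus strand, IBSC_v2) are shown beside it for the contrast in base composition, with no capitals because neither motif was found in the part of it that was read.

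Inositol phosphate kinase gene: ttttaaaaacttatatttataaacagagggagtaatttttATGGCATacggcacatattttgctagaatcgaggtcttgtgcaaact

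SPX5: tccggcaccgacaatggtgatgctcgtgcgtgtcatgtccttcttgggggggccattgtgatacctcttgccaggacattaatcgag

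The inositol phosphate kinase gene and SPX5 were the extremes of the 4 genes in GC content over the 399 bases. It was 32.8% for the kinase gene and 54.9% for SPX5, with 37.1% for PHO1-3 and 38.6% for SPX1 between them. Over the 91 listed sequences with at least 200 known bases the median was 43.9%, with a range from 27.6 to 63.9%. In 5 of the 91 sequences the GC content was below that of the kinase gene, and in 12 it was above that of SPX5.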

How the data were processed

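mRNA libraries from shoots of 3 low-Pi and 3 control samples were made by the authors from 1500 ng of total RNA each (Lexogen SENSE mRNA-Seq V2), with 420 pg of SIRV spike-in, and read in pairs of 150 cycles. The authors mapped the reads to barley IBSC_v2 (Ensembl Plants Genes 42) in CLC Genomics Workbench, with its version, strand setting and treatment of multi-mapping reads not given in the sources used. The deposited signal used is the higher of the 2 group means per gene, in a unit the file does not name. Depth per library is unknown, which limits the precision in a way that cannot be given. The other 5 columns hold the authors' own comparison (log2 fold change, fold change, p-value and adjusted p-values) and were not used, so no test between low-Pi and control was made.

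Levels were ranked among the 27022 genes above 0, with Wilson 95% intervals. Neighbours were genes listed by the authors whose annotated span overlapped or lay within 100 kb. Upstream sequences came from the study's supplement. None of the 4 identifiers matched the RefSeq table used here (MorexV3, 0 of 4). The text names the 4 genes, the 15 listed phosphate genes, overlapping genes and the nearest gene on each side. The members and lists were chosen with earlier results of these data known. Alternatives were other sets of background genes, windows of 50 and 200 kb, a level above 0, and a search of the listed strand only. Functions were tested on simulated data. Python 3.11.15, pandas 2.3.3 and statsmodels 0.14.6 were used.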

Additional observations from a re-analysis of the deposited data

How the results depend on the processing

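No paired analysis was possible because the table holds no value per library, and for the same reason no library could be left out. The levels themselves do not depend on the background genes, but the shares of lower genes did, and in 1 case so did the order of the shares. Over all 39841 listed genes, with those at 0, the shares were 86.8% for SPX1, 85.3% for SPX5, 74.8% for the inositol phosphate kinase gene and 63.9% for PHO1-3. Over genes at 1 or more they were 63.5%, 59.3%, 30.2% and 0%, the last because PHO1-3 itself lies under 1. Over genes of similar span, within 2 times, they were 76.5%, 82.7%, 57.6% and 34.4%, so that SPX5 then stood higher than SPX1. On the gene's own chromosome they were 81.2% for SPX1, 80.0% for SPX5 and 47.9% for PHO1-3. Over genes on 1H to 7H all 4 shares stayed within their intervals, as did that of the kinase gene on its own chromosome. A window of 200 kb gave 1 neighbour for SPX1, 3 for SPX5 and 9 for the kinase gene, against 0, 0 and 4 within 100 kb. With any level above 0 counted, 1 of 5 neighbours of PHO1-3 and 4 of 4 of the kinase gene had a signal. On the listed strand only, 0 of the 4 genes held a PHO element. The unknown unit, depth and spread limit every level given.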
